A study of Mus musculus with 24 samples.

Results

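The macrophage identity genes described here are 8 genes that are widely used to recognise macrophages or that shape how macrophages work: Adgre1, Mertk, Axl, Trem2, Cd68, Gpnmb, Maf and Cebpb. They were taken by gene symbol from the 55401 lines of a table of TPM (transcript abundance scaled for transcript length and to 1 total per library), and each symbol matched 1 line. All 8 passed the filter on low values (1 TPM or more in at least 4 libraries) and were tested among 13246 genes. The table holds bulk RNA sequencing of 24 libraries of mouse dendritic cells cultured out of bone marrow in GM-CSF, a myeloid growth factor. Cells came from mice labelled B6, C57 or PWD and were either left untreated or given lipopolysaccharide (LPS, from E. coli 0111:B4) at 10 ng/ml for 6 hours, with 4 libraries in each of the 6 groups. PWD mice are inbred and descend from wild Mus musculus musculus. How the C57 mice differed from the B6 mice was not given in the sources used here, nor were the age and sex of the animals. The study's description gives 4 mice per strain with an independent culture from each, and untreated and LPS libraries of 1 strain that carry the same number were taken as cultures of 1 mouse.

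Every library summed to 1000000 TPM, a scale that keeps no sequencing depth, so the depth is unknown. Structural RNAs (11 symbols) took 28.8% to 44.2% of a library. Among untreated PWD libraries their share was 41.9% and 40.3% in numbers 1 and 2 and 29.3% and 28.8% in numbers 3 and 4. In all 6 groups the libraries numbered 1 and 2 held Y-linked transcripts (63.1 to 96.5 TPM summed) and those numbered 3 and 4 held Xist (41.9 to 104 TPM), so the number and the sex of the mouse cannot be told apart. Of the dendritic cell markers, Itgax averaged 237.5 to 340.3 TPM and Zbtb46 6.26 to 15.3 TPM over the groups, while Flt3 (0.26 to 0.48 TPM) and Xcr1 (at most 0.14 TPM) were close to 0. Summed over 16 dendritic cell markers, untreated libraries held 6850 to 9120 TPM in B6, 2710 to 3440 in C57 and 3180 to 5480 in PWD. The 16 include Cd74, H2-Ab1 and Ciita, genes of antigen presentation by MHC class II, and Itgax was a small part of the sum. The sum is therefore not a measure of how many cells were dendritic cells. Of the 14 tested, 0 were higher and 10 lower in untreated C57 than in B6 (31.9% and 6.92% of all tested genes). In untreated PWD 0 were higher and 13 lower than in B6 (37.2% and 19.7%), and 3 higher and 6 lower than in C57 (20.1% and 26.2%). Summed over 15 macrophage and monocyte markers that do not include the 8 genes, untreated B6, C57 and PWD libraries held 8910 to 10500, 13100 to 14400 and 5540 to 8070 TPM. Most of that sum was Lyz2 (means of 7415, 11430 and 5103 TPM). Of the 13 tested markers, 4 were higher and 6 lower in untreated C57 than in B6 cells, against 31.9% and 6.92% of all tested genes. Two-sided limma tests on log2(TPM + 1) with Benjamini-Hochberg adjustment over all tested genes were used throughout. A gene is said to have risen, fallen or differed only where the adjusted p was under 0.05.

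Macrophages clear dying cells, debris and microbes, and most of the 8 genes serve that work. Mertk and Axl belong to the TAM family of receptor tyrosine kinases, which recognise phosphatidylserine on dying cells through the bridging proteins Gas6 and protein S and restrain inflammatory signalling. Trem2 binds lipids and signals through the adaptor DAP12, Cd68 and Gpnmb are glycoproteins of lysosomes and related membranes, and Adgre1 encodes F4/80, the classical surface marker of mouse macrophages. Maf and Cebpb are basic leucine zipper transcription factors: Maf is tied to mature, often IL-10-producing macrophages, and Cebpb to myeloid differentiation and the inflammatory response to LPS. Bone marrow grown with GM-CSF is known to give a mixture of dendritic cells and macrophage-like cells, so these genes are measured in such cultures as a matter of course.

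Promoters are shown for 3 genes of the set: Trem2, which fell with LPS in every strain, and Cd68 and Gpnmb, whose levels were both highest in untreated PWD cells. The sequences come from RefSeq on GRCm38.p6, which is the reference and not a PWD sequence; 6 of the 8 genes matched that table, and Adgre1 and Maf did not. Each is the 250 bases before the start site and the first 30 bases from it, 5′ to 3′ on the gene's strand, for Trem2 at chr17:48346151-48346430 on the plus strand, for Cd68 at chr11:69666141-69666420 on the minus strand and for Gpnmb at chr6:49036268-49036547 on the plus strand. Capitals mark matches on either strand to GAGGAA (the core bound by the myeloid factor PU.1), TTGCNNAA (C/EBP) or TGANTCA (AP-1).
Trem2: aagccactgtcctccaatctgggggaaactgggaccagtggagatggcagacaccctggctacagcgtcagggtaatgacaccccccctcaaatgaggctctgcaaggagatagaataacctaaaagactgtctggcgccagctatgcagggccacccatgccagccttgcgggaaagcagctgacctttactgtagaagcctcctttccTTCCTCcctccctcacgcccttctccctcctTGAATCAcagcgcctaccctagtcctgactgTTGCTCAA
Cd68: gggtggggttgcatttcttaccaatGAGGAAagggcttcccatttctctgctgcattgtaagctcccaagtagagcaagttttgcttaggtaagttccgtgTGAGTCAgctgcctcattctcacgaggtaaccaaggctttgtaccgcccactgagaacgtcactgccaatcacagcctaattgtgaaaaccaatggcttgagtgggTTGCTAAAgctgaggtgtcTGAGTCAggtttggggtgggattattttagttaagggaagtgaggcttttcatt
Gpnmb: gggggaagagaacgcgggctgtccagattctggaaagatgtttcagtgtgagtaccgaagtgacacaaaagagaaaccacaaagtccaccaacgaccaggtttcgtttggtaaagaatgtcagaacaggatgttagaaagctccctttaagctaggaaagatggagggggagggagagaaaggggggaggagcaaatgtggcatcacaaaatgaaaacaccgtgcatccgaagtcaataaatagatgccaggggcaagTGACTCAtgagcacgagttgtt
In the 300 bases from 250 before the start site, GAGGAA occurs in 28.3% of the 32851 promoters of the table, TTGCNNAA in 10.8% and TGANTCA in 7.81%. Counted from the start site as 0, Trem2 held GAGGAA at -40, TGANTCA at -9 and TTGCNNAA at 22. Cd68 held TGANTCA at -149 and -24, TTGCNNAA at -43 and GAGGAA at -225, with a further GAGGAA at 29 that reaches past the bases shown. Gpnmb held TGANTCA at 8. The searched motifs TCACGTG and TCATGTG (3.77% of promoters each; bound by the lysosomal MiT factors), TGCTGA (19.5%; a MAF half-site) and TTCNNNGAA (8.3%; STAT) gave no match in any of the 6 promoters. Axl held GAGGAA at -130, and Mertk and Cebpb held none of the motifs. A match is a run of letters and not a measured site.

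Levels differed widely within the set. Averaged over all libraries on the TPM scale, Gpnmb stood above 99% of the tested genes, Axl and Cd68 above 97%, Cebpb above 96%, Adgre1 above 92%, Trem2 above 89%, Mertk above 64% and Maf above 37%. From the lowest to the highest group mean, Maf spanned 6.22-fold, Trem2 5.63-fold, Mertk 4.35-fold, Gpnmb 3.11-fold, Cd68 2.46-fold, Cebpb 2.35-fold, Axl 2.33-fold and Adgre1 1.64-fold. In such bulk samples, fewer cells of a type and less RNA per cell cannot be told apart.

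**Figure D1:**
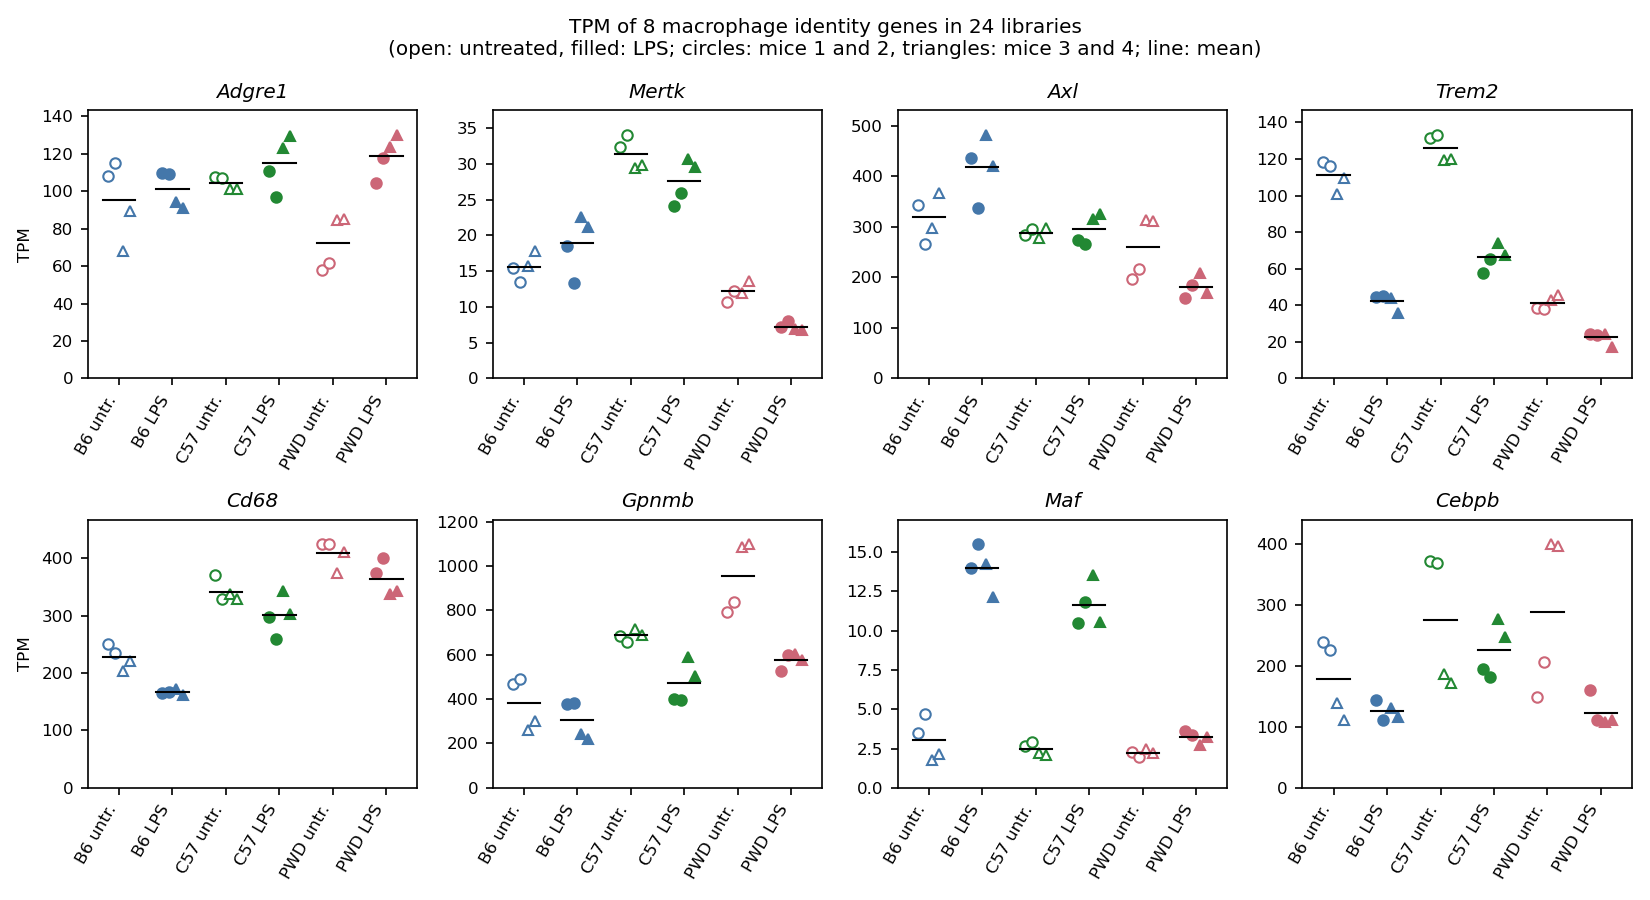
TPM (linear axis from 0) of each of the 8 genes in all 24 libraries, by strain and treatment; open symbols are untreated and filled symbols LPS, circles are mice 1 and 2, triangles mice 3 and 4, and the line is the mean of 4 libraries. Maf is at 10.5 to 15.5 TPM in LPS-treated B6 and C57 cells and at 2.74 to 3.63 TPM in LPS-treated PWD cells, and Trem2 is lower with LPS in each strain.

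Adgre1 (chr17:57358691-57483527, plus strand; mm10 positions here and below) encodes the adhesion receptor F4/80. In B6 it was at 108.2, 115.1, 67.8 and 89.3 TPM untreated and at 109.5, 109.3, 94.2 and 90.8 TPM with LPS. In C57 the values were 107.7, 107, 101.3 and 101.3 TPM untreated and 110.8, 96.9, 122.8 and 129.2 TPM with LPS. In PWD they were 58.1, 61.9, 84.6 and 85.1 TPM untreated and 104.2, 117.9, 123.3 and 130.1 TPM with LPS. Untreated PWD libraries 1 and 2 were the lowest of all 24, and PWD was the only strain in which the treated and untreated libraries did not overlap. Adgre1 rose with LPS in PWD by 0.72 ± 0.14 (SE; log2, n = 4 and 4; adjusted p = 6.52e-05), or 1.64-fold on the mean TPM. The differences were 0.11 ± 0.14 in B6 (adjusted p = 0.493) and 0.13 ± 0.14 in C57 (adjusted p = 0.42). On median-of-ratios scaling, which sets the middle gene of each library level, these 2 differences were 0.67 (adjusted p = 1.01e-06) and 0.50 (adjusted p = 8.31e-05). The PWD response exceeded the B6 response by 0.62 (adjusted p = 0.0216) and the C57 response by 0.59 (adjusted p = 0.0464). The first of these was not called without any 1 of B6 untreated library 1 (0.55, adjusted p = 0.0546), B6 untreated library 2 (0.52, adjusted p = 0.0582), PWD untreated library 1 (0.52, adjusted p = 0.0564) or PWD untreated library 2 (0.55, adjusted p = 0.0525). The second was called in 5 of 16 such omissions, those of C57 LPS library 3 or 4, PWD LPS library 1 and PWD untreated library 3 or 4, and had an adjusted p of up to 0.106 in the others.

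Before treatment Adgre1 was lower in PWD than in B6 (log2 difference -0.38, adjusted p = 0.0199) and than in C57 (-0.54, adjusted p = 0.00191). The difference from B6 was not called without B6 untreated library 1 (-0.31, adjusted p = 0.0746) or 2 (-0.28, adjusted p = 0.0972), or without PWD untreated library 1 (-0.28, adjusted p = 0.0874) or 2 (-0.31, adjusted p = 0.0708), and in the mice numbered 3 and 4 alone it was 0.12 (adjusted p = 0.341). Within a fit of those 2 groups alone it was also not called (adjusted p = 0.0809). The difference from C57 was -0.25 (adjusted p = 0.0797) in the mice numbered 3 and 4 and -0.83 (adjusted p = 2.38e-05) in those numbered 1 and 2. After LPS the group means of Adgre1 lay between 100.9 ± 9.87 TPM (SD, n = 4) in B6 and 118.9 ± 10.98 TPM in PWD, with 114.9 ± 14.3 TPM in C57, and no strain difference was called. Each neighbouring pair in the order of the 6 group means overlapped.

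Mertk (chr2:128698956-128802894, plus strand) encodes the TAM receptor on which macrophages rely most for taking up dying cells. In B6 it was at 15.5, 13.5, 15.7 and 17.9 TPM untreated and at 18.6, 13.4, 22.6 and 21.2 TPM with LPS. In C57 the values were 32.4, 34.1, 29.5 and 29.9 TPM untreated and 24.1, 25.9, 30.8 and 29.5 TPM with LPS. In PWD they were 10.8, 12.3, 12.0 and 13.7 TPM untreated and 7.27, 7.99, 6.90 and 6.75 TPM with LPS. All 8 C57 libraries lay above all B6 and PWD libraries, and the 4 LPS-treated PWD libraries lay below every other library. Between those ends, B6 with LPS, untreated B6 and untreated PWD followed in order of mean, each overlapping the next. Untreated C57 cells held 2.01-fold the mean TPM of B6 (log2 difference 0.97 ± 0.12 SE, adjusted p = 5.5e-07) and 2.59-fold that of PWD (PWD minus C57 -1.30, adjusted p = 6.38e-10). After LPS the C57 mean was 3.81-fold that of PWD (PWD minus C57 -1.79, adjusted p = 8.89e-13).

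With LPS, Mertk fell in PWD (-0.68 ± 0.12 on the log2 scale, adjusted p = 3.17e-05), in 4 of 4 mice. It was not called in B6 (0.24, adjusted p = 0.0763) or in C57 (-0.19, adjusted p = 0.179); under median-of-ratios scaling B6 was called higher (0.78, adjusted p = 1.87e-06) and the C57 value turned to 0.17 (adjusted p = 0.218). B6 was also called higher without B6 LPS library 2 (0.39, adjusted p = 0.0026) or B6 untreated library 4 (0.30, adjusted p = 0.0399). The response of Mertk in PWD was below that in B6 (difference -0.92 on the log2 scale, adjusted p = 0.000257); against C57 the difference was -0.49 (adjusted p = 0.0665, and 0.0471 with the mouse as a block). C57 exceeded B6 after LPS by 0.54 (adjusted p = 0.00045), and this difference was 0.15 (adjusted p = 0.27) with median-of-ratios scaling. Untreated PWD cells were below B6 (-0.34, adjusted p = 0.0205), which was not called without B6 untreated library 4 (-0.27, adjusted p = 0.0788) or PWD untreated library 1 (-0.28, adjusted p = 0.0636).

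Axl (chr7:25757273-25788705, minus strand) encodes the TAM receptor that binds Gas6 most tightly and is prominent on dendritic cells and activated macrophages. B6 libraries held 343.2, 266.8, 298.3 and 366.5 TPM untreated and 435.4, 337.3, 482.5 and 420.0 TPM with LPS. C57 libraries held 283.2, 295.9, 278.6 and 297.4 TPM untreated and 273.6, 266.9, 314.9 and 324.9 TPM with LPS. PWD libraries held 196.1, 217.1, 314.1 and 312.5 TPM untreated and 158.3, 184.5, 208.3 and 169.5 TPM with LPS. B6 libraries were at the top after LPS and PWD libraries at the bottom, and the 3 strains did not overlap after LPS. Axl rose with LPS in B6 by 0.39 ± 0.14 (log2, SE; adjusted p = 0.0119), fell by 0.50 in PWD (adjusted p = 0.00235) and was 0.03 apart in C57 (adjusted p = 0.883). The rise in B6 was seen in 4 of 4 mice and the fall in PWD in 4 of 4. The response in PWD was below that in B6 (-0.89, adjusted p = 0.0011).

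The Axl call in B6 was lost without B6 untreated library 2 (0.31, adjusted p = 0.0551) or B6 LPS library 3 (0.32, adjusted p = 0.0505). Scaled by median of ratios, the PWD change was -0.12 (adjusted p = 0.287), the C57 change 0.39 (adjusted p = 0.000978) and the difference between the PWD and B6 responses -1.08 (adjusted p = 8.77e-07). The C57 response of Axl was not called different from that of PWD (PWD minus C57 -0.53, adjusted p = 0.0765). It was called with the mouse as a block (adjusted p = 0.0211), under median-of-ratios scaling (-0.51, adjusted p = 0.00572), in the mice numbered 3 and 4 alone (-0.89, adjusted p = 0.00373), and without PWD untreated library 1 (-0.65, adjusted p = 0.0164) or 2 (-0.60, adjusted p = 0.0461). After LPS the B6 mean of Axl was 2.32-fold that of PWD (PWD minus B6 -1.21, adjusted p = 1.5e-08), and C57 was below B6 (-0.50, adjusted p = 0.00271) and above PWD (PWD minus C57 -0.71, adjusted p = 7.53e-05). Untreated, PWD minus B6 was -0.31 (adjusted p = 0.0503), a difference that was called with the replicate number as a block (adjusted p = 0.0251) and without B6 untreated library 2 (-0.40), PWD untreated library 3 (-0.42) or PWD untreated library 4 (-0.41).

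The TAM pair was read in different proportions in the 3 strains. Axl was read at 20.4 ± 1.32 times the TPM of Mertk (SD, n = 4) in untreated B6 cells and 22.5 ± 2.33 times with LPS. In C57 the ratio of Axl to Mertk was 9.21 ± 0.604 untreated and 10.7 ± 0.557 with LPS. In PWD it was 21.3 ± 4.08 untreated and 25 ± 3.69 with LPS. The C57 ratios were thus the lowest of the 6 groups, with Mertk high and Axl at a middle level.

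Trem2 (chr17:48346401-48354147, plus strand) encodes the lipid receptor that pairs with DAP12. In B6 it was at 118.3, 116.2, 101.1 and 109.5 TPM untreated and at 44.7, 45.3, 44.1 and 35.7 TPM with LPS. In C57 the values were 131.3, 133.3, 119.6 and 120.2 TPM untreated and 57.4, 65.6, 74.3 and 67.5 TPM with LPS. In PWD they were 38.6, 37.9, 43.0 and 45.5 TPM untreated and 24.5, 23.9, 24.1 and 17.1 TPM with LPS. Treated and untreated libraries did not overlap in any strain, and untreated PWD cells overlapped B6 cells that had received LPS. The order of the group means was C57, then B6, both untreated, then C57 with LPS, B6 with LPS, untreated PWD and PWD with LPS, and only B6 with LPS and untreated PWD overlapped as neighbours. Trem2 fell with LPS in B6 (-1.37 ± 0.11, log2 and SE; adjusted p = 1.41e-11), in C57 (-0.92, adjusted p = 5.19e-08) and in PWD (-0.86, adjusted p = 1.26e-07), in 4 of 4 mice each. The mean TPM fell by 61.8% in B6. It fell by 47.5% in C57 and fell by 45.7% in PWD. The falls were also called with median-of-ratios scaling (-0.82, -0.56 and -0.49).

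Before treatment Trem2 was lower in PWD than in B6 (log2 difference -1.41, adjusted p = 5.79e-12) and than in C57 (-1.59, adjusted p = 6.16e-13), with a mean TPM 2.7-fold and 3.06-fold higher in B6 and C57 than in PWD. After LPS the C57 mean was 2.95-fold that of PWD and 1.56-fold that of B6 (adjusted p = 1.35e-12 and 1.36e-05). The response was smaller in PWD than in B6 by 0.51 (adjusted p = 0.0131) and smaller in C57 than in B6 by 0.45 (adjusted p = 0.0425). With median-of-ratios scaling neither difference in response was called (0.33, adjusted p = 0.0573, and 0.26, adjusted p = 0.157). The second was also not called with the mouse as a block (adjusted p = 0.0688), and was called in 5 of 16 omissions of 1 library, those of B6 LPS library 1 or 2, B6 untreated library 3, C57 LPS library 1 and C57 untreated library 2; the other 11 gave an adjusted p of up to 0.111. Among untreated cells the macrophage and monocyte marker sum was lowest in PWD, as was Trem2. Of the 13 tested markers of that sum, 10 were lower in PWD than in B6 and 3 higher, against 19.7% and 37.2% of all tested genes. The part of cell makeup in the Trem2 difference was not tested.

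**Figure D2:**
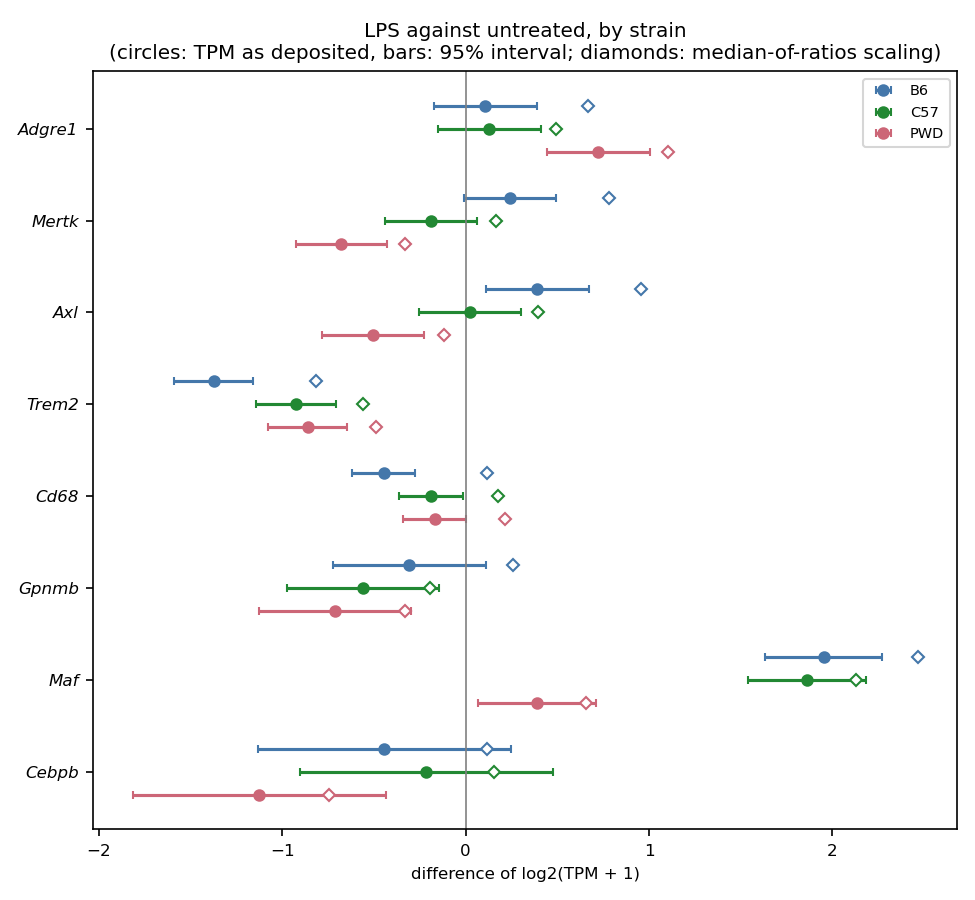
Log2 difference between LPS-treated and untreated cells for each of the 8 genes in B6, C57 and PWD, on log2(TPM + 1), with the 95% interval from limma as bars and the value under median-of-ratios scaling as a diamond. Trem2 is below 0 and Maf above 0 in all 3 strains under both scalings, Mertk and Axl are lowest in PWD, and Cd68 is below 0 in every strain as deposited and above 0 under median-of-ratios scaling.

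Cd68 (chr11:69664213-69666153, minus strand) encodes a heavily glycosylated protein of late endosomes and lysosomes. B6 libraries held 250.6, 235, 203.6 and 221.4 TPM untreated and 165.9, 166.2, 171.8 and 161.1 TPM with LPS. C57 libraries held 371.7, 328.8, 336.9 and 328.3 TPM untreated and 297, 258.5, 343.6 and 302.8 TPM with LPS. PWD libraries held 424.8, 424.6, 374.1 and 410.4 TPM untreated and 374, 400.4, 337.6 and 343.5 TPM with LPS. All C57 and PWD libraries lay above all B6 libraries, and within B6 the treated libraries lay below the untreated ones. Untreated, Cd68 was 1.79-fold higher in PWD than in B6 (log2 difference 0.84 ± 0.08 SE, adjusted p = 1.92e-09) and 1.5-fold higher in C57 than in B6 (0.59, adjusted p = 4.43e-06). PWD exceeded C57 by 0.26 (adjusted p = 0.0135) untreated and by 0.28 (adjusted p = 0.00659) after LPS, the latter 0.08 (adjusted p = 0.476) in the mice numbered 3 and 4 and 0.48 (adjusted p = 0.00121) in those numbered 1 and 2. After LPS the PWD mean was 2.19-fold that of B6 (1.12, adjusted p = 5.04e-12).

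Cd68 fell with LPS in B6 (-0.45, adjusted p = 3.79e-05) on the TPM scale, whereas median-of-ratios scaling gave 0.12 (adjusted p = 0.274). In C57 the difference was -0.19 (adjusted p = 0.0529) and in PWD -0.17 (adjusted p = 0.0836), and under median-of-ratios scaling these turned to 0.18 (adjusted p = 0.099) and 0.22 (adjusted p = 0.0456). The middle tested gene was itself lower with LPS, with a median log2 difference of -0.43 in B6, -0.32 in C57 and -0.32 in PWD as deposited, against 0, -0.03 and 0.00 after median-of-ratios scaling, so the Cd68 value in B6 lay near the median of all genes. The C57 difference was called without C57 LPS library 3 (-0.26, adjusted p = 0.0109), and the PWD difference without PWD LPS library 2 (-0.22, adjusted p = 0.0423) or PWD untreated library 3 (-0.21, adjusted p = 0.0478).

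Gpnmb (chr6:49036546-49070929, plus strand) encodes a glycoprotein of lysosomes and melanosomes that is high in lipid-laden macrophages and osteoclasts. In B6 it was at 468.8, 490.5, 260.6 and 302.9 TPM untreated and at 379.3, 383.7, 241.8 and 220.4 TPM with LPS. In C57 the values were 686.4, 659, 715.1 and 691 TPM untreated and 401.3, 394.7, 588.1 and 505.7 TPM with LPS. In PWD they were 791.5, 839.1, 1085 and 1099 TPM untreated and 524.7, 598.9, 605.5 and 575.9 TPM with LPS. Untreated cells fell into the order PWD, C57 and B6 without overlap, and in B6 the libraries numbered 1 and 2 were above numbers 3 and 4 under both treatments. Untreated Gpnmb was 2.51-fold higher in PWD than in B6 (log2 difference 1.36 ± 0.20 SE, adjusted p = 4.96e-06) and 1.81-fold higher in C57 than in B6 (0.90, adjusted p = 0.00116). PWD minus C57 was 0.46 (adjusted p = 0.0674), which was called without PWD untreated library 1 (0.54, adjusted p = 0.0483), within a fit of those 2 groups alone (adjusted p = 0.00453) and with median-of-ratios scaling (0.51, adjusted p = 0.0101).

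With LPS Gpnmb fell in PWD (-0.71, adjusted p = 0.00398) and in C57 (-0.56, adjusted p = 0.019), in 4 of 4 mice each. The mean TPM of Gpnmb fell by 39.6% in PWD and fell by 31.3% in C57. Under median-of-ratios scaling these values were -0.33 (adjusted p = 0.0918) and -0.19 (adjusted p = 0.337). The C57 call was lost without C57 LPS library 1 (-0.49, adjusted p = 0.0601) or 2 (-0.48, adjusted p = 0.0653). In B6 the difference was -0.31 (adjusted p = 0.176), and Gpnmb was lower in 4 of 4 mice. The B6 difference was called with the mouse as a block (adjusted p = 0.00732) or without B6 untreated library 3 (-0.47, adjusted p = 0.0354). It was also called in the mice numbered 1 and 2 alone (-0.33, adjusted p = 0.00386) and 3 and 4 alone (-0.28, adjusted p = 0.0188). Under median-of-ratios scaling it turned to 0.26 (adjusted p = 0.174). After LPS PWD minus B6 was 0.95 (adjusted p = 0.00025) and C57 minus B6 0.65 (adjusted p = 0.00815), the latter 0.24 (adjusted p = 0.213) with median-of-ratios scaling. That C57 minus B6 difference was 0.06 (adjusted p = 0.586) in the mice numbered 1 and 2 and 1.24 (adjusted p = 5.97e-07) in those numbered 3 and 4.

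Cd68 and Gpnmb were both high in PWD, where Trem2 was low. The TPM of Trem2 divided by that of Cd68 averaged 0.489 in untreated B6, 0.37 in untreated C57 and 0.101 in untreated PWD cells, and 0.255, 0.222 and 0.0616 after LPS. Over the 24 libraries, which share strains, treatments and mice, log2 levels of Cd68 and Gpnmb had a Pearson r of 0.867, Mertk and Trem2 of 0.75, Mertk and Axl of 0.619 and Axl and Cd68 of -0.713. Osteoclasts also express Gpnmb: 8 osteoclast markers summed to 323 to 365 TPM in untreated B6, 462 to 485 in untreated C57 and 604 to 798 in untreated PWD libraries. Of the 7 tested, 3 were higher and 1 lower in untreated PWD than in B6, against 37.2% and 19.7% of all tested genes. In untreated PWD against C57, 1 was higher and 2 lower (20.1% and 26.2% of all tested genes), with a median of -0.07. After LPS the 8 markers summed to 197 to 235 TPM in B6, 304 to 368 in C57 and 814 to 864 in PWD. With LPS in PWD, 2 of the 7 tested rose and 5 fell (11.1% and 52.4% of all tested genes). Acp5 alone averaged 288.6 TPM in untreated PWD against 22.9 TPM in B6, within mean sums of 699 and 346 TPM. Calcr (0.12 TPM) and Oscar (0.03 TPM) were close to 0 in untreated PWD cells. The part of osteoclast-like cells in the Gpnmb difference was not tested.

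**Figure D3:**
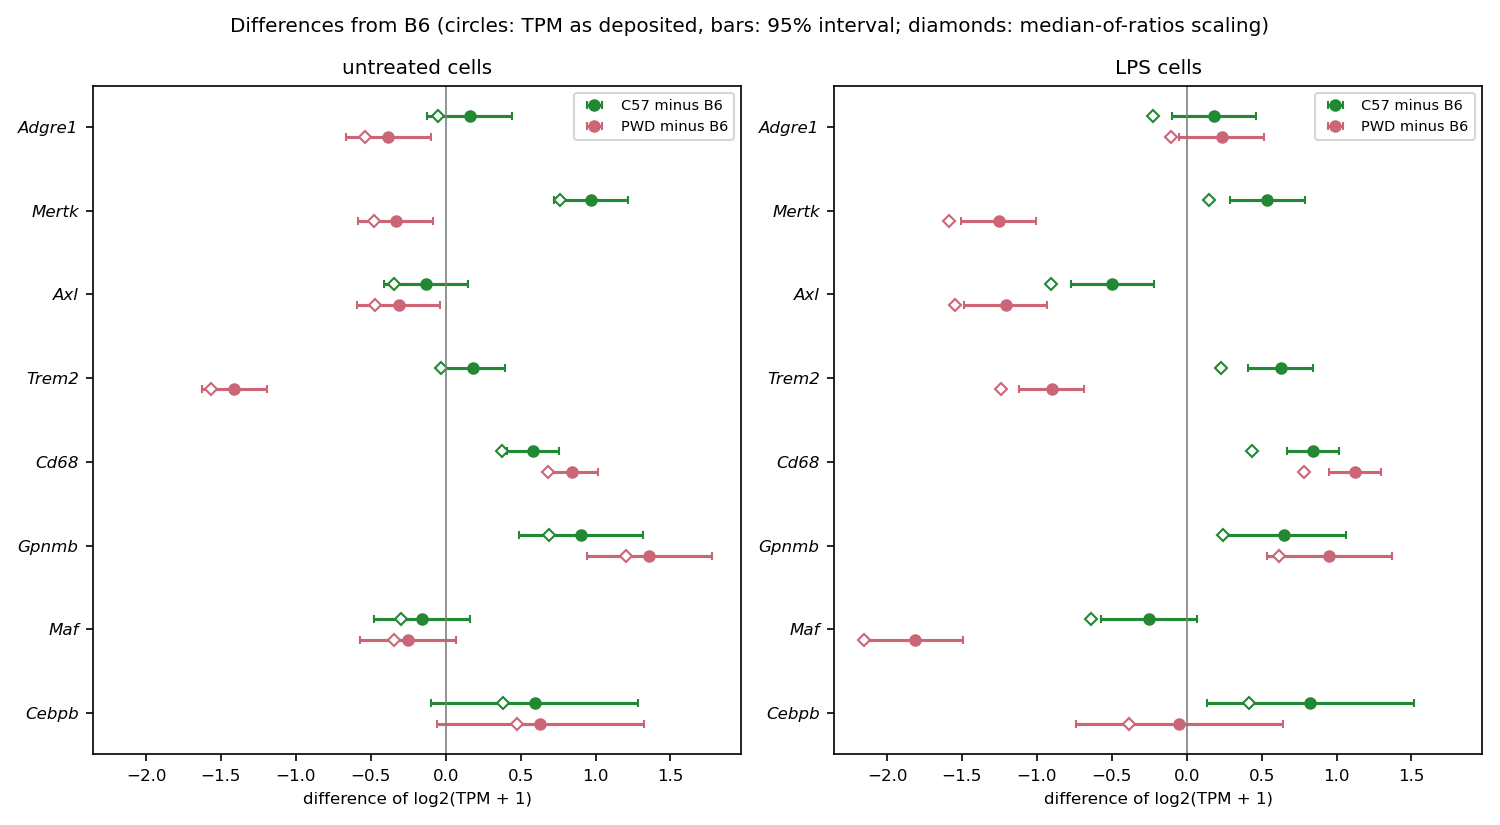
Log2 difference of C57 minus B6 and of PWD minus B6 for each of the 8 genes, untreated and after LPS, with the 95% interval from limma as bars and the value under median-of-ratios scaling as a diamond. Cd68 and Gpnmb are above 0 in both strains under both scalings, Trem2 is below 0 in PWD, Mertk is above 0 in C57 and below 0 in PWD, and Maf in PWD after LPS is at -1.82.

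Maf (chr8:115682942-115707794, minus strand) encodes c-Maf. B6 libraries held 3.50, 4.69, 1.77 and 2.13 TPM untreated and 14.0, 15.5, 14.2 and 12.2 TPM with LPS. C57 libraries held 2.65, 2.93, 2.23 and 2.07 TPM untreated and 10.5, 11.8, 13.6 and 10.6 TPM with LPS. PWD libraries held 2.30, 1.95, 2.50 and 2.24 TPM untreated and 3.63, 3.38, 2.74 and 3.26 TPM with LPS. All 8 treated B6 and C57 libraries lay above all others, while treated PWD libraries lay within the range of untreated B6 libraries. Maf rose with LPS by 1.95 ± 0.16 (log2, SE; adjusted p = 2.88e-11) in B6 and by 1.86 (adjusted p = 2.24e-10) in C57, or 4.63-fold and 4.7-fold on the mean TPM. In PWD it rose by 0.39 (adjusted p = 0.0324), or 1.45-fold, in 4 of 4 mice. That PWD call was lost without filtering low genes (adjusted p = 0.0719) and without any 1 of PWD LPS library 1 (0.35, adjusted p = 0.0826), 2 (0.37, adjusted p = 0.0639) or 4 (0.39, adjusted p = 0.0557) or PWD untreated library 2 (0.34, adjusted p = 0.0785) or 4 (0.39, adjusted p = 0.0563).

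The response of Maf was smaller in PWD than in B6 (-1.56 on the log2 scale, adjusted p = 7.19e-06) and than in C57 (-1.47, adjusted p = 3.07e-05), and the C57 and B6 responses were not called different. Over all untreated libraries no strain difference in Maf was called (PWD minus B6 -0.25, adjusted p = 0.174). PWD minus B6 was called under median-of-ratios scaling (-0.35, adjusted p = 0.0463), without B6 untreated library 3 (-0.41, adjusted p = 0.023) and in the mice numbered 1 and 2 alone (-0.70, adjusted p = 0.0016), and C57 minus B6 in the mice numbered 1 and 2 alone (-0.42, adjusted p = 0.049). After LPS the B6 mean was 4.29-fold and the C57 mean 3.57-fold that of PWD (PWD minus B6 -1.82, adjusted p = 7.94e-11; PWD minus C57 -1.57, adjusted p = 2.23e-09). Scaled by median of ratios, the response differences were -1.81 (adjusted p = 5.33e-07) and -1.47 (adjusted p = 1.69e-05). Reads were placed on mm10, a C57BL/6J assembly, and the effect of PWD sequence on the levels read was not tested for any gene.

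Cebpb (chr2:167688915-167690418, plus strand) encodes C/EBPβ. B6 libraries held 239.8, 226.4, 138.9 and 111.3 TPM untreated and 143.3, 111.1, 131.6 and 116.2 TPM with LPS. C57 libraries held 372.2, 368.6, 186 and 172.5 TPM untreated and 195, 181.9, 276.3 and 247.8 TPM with LPS. PWD libraries held 149.5, 206.2, 399.7 and 396.6 TPM untreated and 160.8, 110.5, 108.1 and 110.5 TPM with LPS. Within each untreated group the libraries numbered 1 and 2 did not overlap those numbered 3 and 4: numbers 1 and 2 were higher in B6 (1.86-fold) and C57 (2.06-fold) and lower in PWD (2.23-fold). The 6 group means lay between 122.5 ± 25.6 TPM (SD, n = 4) in treated PWD and 288 ± 129.3 TPM in untreated PWD cells, and each neighbouring pair in their order overlapped.

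Cebpb fell with LPS in PWD (-1.13 ± 0.33 on the log2 scale, adjusted p = 0.00615), where the mean TPM fell by 57.5% and 3 of 4 mice were lower, and was not called in B6 (-0.44, adjusted p = 0.237) or C57 (-0.21, adjusted p = 0.594), where median-of-ratios scaling gave 0.12 and 0.15. In the mice numbered 1 and 2 alone the LPS difference was -0.88 in B6 (adjusted p = 0.00229), -0.97 in C57 (adjusted p = 0.00161) and -0.39 in PWD (adjusted p = 0.128). In the mice numbered 3 and 4 alone it was -0.01 in B6 (adjusted p = 0.965), 0.54 in C57 (adjusted p = 0.00146) and -1.86 in PWD (adjusted p = 3.32e-08). The C57 change of Cebpb thus had opposite signs in the mice numbered 1 and 2 and those numbered 3 and 4, and the PWD minus C57 difference in response was 0.58 (adjusted p = 0.163) in the former and -2.40 (adjusted p = 4.13e-06) in the latter, against -0.91 (adjusted p = 0.26) over all mice. After LPS C57 exceeded B6 by 0.82 (adjusted p = 0.0383) and PWD (PWD minus C57 -0.87, adjusted p = 0.0315). The first was not called with the replicate number as a block (adjusted p = 0.0572), with median-of-ratios scaling (0.42, adjusted p = 0.215) or without any 1 of B6 LPS libraries 2, 3 and 4 and C57 LPS libraries 3 and 4 (adjusted p up to 0.102). The second was not called without any 1 of C57 LPS libraries 3 and 4 and PWD LPS libraries 2, 3 and 4 (adjusted p up to 0.0845).

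**Figure D4:**
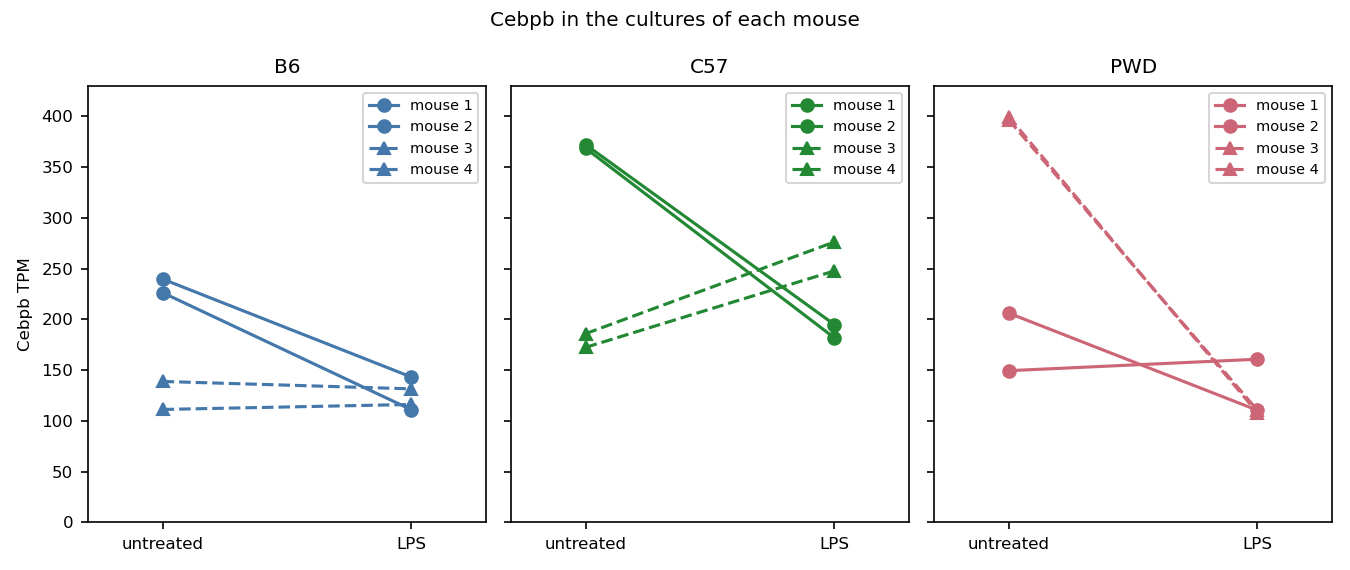
Cebpb in TPM (linear axis from 0) in the untreated and the LPS library of each mouse, joined by a line, for B6, C57 and PWD; circles are mice 1 and 2 and triangles mice 3 and 4. In C57 the lines of mice 1 and 2 go down and those of mice 3 and 4 go up, and in PWD mice 3 and 4 start at 399.7 and 396.6 TPM and end at 108.1 and 110.5 TPM.

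The split by number was also seen in other genes of the set. Counting genes whose libraries numbered 1 and 2 did not overlap those numbered 3 and 4 and whose means (as TPM + 1) were more than 1.5 times apart, untreated B6 cells had 3 of the 8 (Gpnmb, Maf and Cebpb), against 2.66% of all tested genes. B6 cells with LPS had 1 (Gpnmb, against 1.74%), untreated C57 cells 1 (Cebpb, against 1.73%) and untreated PWD cells 2 (Axl and Cebpb, against 8.26%). C57 cells with LPS had 0 (against 2.47%) and PWD cells with LPS 0 (against 1.40%). Calls over all mice that were lost in 1 pair of numbers, and are not given with their gene above, were as follows. In the mice numbered 1 and 2 alone they were Axl with LPS in B6 (0.34, adjusted p = 0.0501) and in PWD (-0.27, adjusted p = 0.148), untreated Mertk in PWD minus B6 (-0.31, adjusted p = 0.0954), Cebpb in PWD minus C57 with LPS (-0.49, adjusted p = 0.0577) and the Trem2 response of C57 minus B6 (0.27, adjusted p = 0.215). In the mice numbered 3 and 4 alone they were Maf with LPS in PWD (0.25, adjusted p = 0.17), the Adgre1 response of PWD minus B6 (0.33, adjusted p = 0.177) and of PWD minus C57 (0.26, adjusted p = 0.251), and the Trem2 response of PWD minus B6 (0.30, adjusted p = 0.351) and of C57 minus B6 (0.63, adjusted p = 0.0549). In untreated PWD cells the split went with the share of structural RNA given above, and its part in the Cebpb values was not tested. Cebpb overlaps Tmem189 on the opposite strand, which was read at 45.9 to 56.0 TPM in untreated PWD cells and at 35.5 to 115 TPM over all libraries. The kit marked strand, but whether the counting used it was not given in the sources used here, so their reads may not be fully told apart. The antisense genes that overlap Mertk (Gm14011) and Maf (Gm15655) were at 0 TPM in every library.

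Counted over the set, LPS raised Maf and Axl and lowered Trem2 and Cd68 in B6, 4 of the 8 genes, where 71.6% of all tested genes were called (11.9% higher and 59.7% lower). In C57 it raised Maf and lowered Trem2 and Gpnmb, 3 of the 8, against 62.5% of all tested genes (10.4% higher and 52.2% lower). In PWD it raised Adgre1 and Maf and lowered Mertk, Axl, Trem2, Gpnmb and Cebpb, 7 of the 8, against 63.5% (11.1% higher and 52.4% lower). Scaled by median of ratios, LPS raised 4 (Adgre1, Mertk, Axl and Maf) and lowered 1 (Trem2) in B6, where 4129 of the 13246 tested genes were higher and 4024 lower. LPS then raised 3 (Adgre1, Axl and Maf) and lowered 1 (Trem2) in C57 (3291 and 3495 of all tested genes), and raised 3 (Adgre1, Cd68 and Maf) and lowered 3 (Mertk, Trem2 and Cebpb) in PWD (3591 and 3460). As deposited, the median log2 difference of the 8 genes was -0.10 in B6, -0.19 in C57 and -0.59 in PWD, beside -0.43, -0.32 and -0.32 over all tested genes. Trem2 was called lower in all 3 strains, as were 39.3% of all tested genes, and Maf higher in all 3, as were 6.20%; with median-of-ratios scaling Adgre1 was higher in all 3 as well. The response differed between C57 and B6 for 1 of the 8 (Trem2; 14.3% of all tested genes), between PWD and B6 for 5 (Adgre1, Mertk, Axl, Trem2 and Maf; 23.5%) and between PWD and C57 for 2 (Adgre1 and Maf; 11.4%). With median-of-ratios scaling the response differed between C57 and B6 for 2 other genes, Mertk (-0.61, adjusted p = 0.00524) and Axl (-0.56, adjusted p = 0.00232), between PWD and B6 for 4 (Adgre1, Mertk, Axl and Maf) and between PWD and C57 for the same 4. None of these counts used the mouse as a block. With that block, on TPM as deposited, Gpnmb was also called lower with LPS in B6. The response was then also called different for Gpnmb between PWD and B6, and for Mertk and Axl between PWD and C57. The Trem2 difference in response between C57 and B6 was no longer called.

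Between strains, untreated C57 cells were higher than B6 in 3 of the 8 genes (Mertk, Cd68 and Gpnmb) and lower in 0, where 38.8% of all tested genes were called (31.9% higher and 6.92% lower). Untreated PWD cells were higher than B6 in 2 (Cd68 and Gpnmb) and lower in 3 (Adgre1, Mertk and Trem2), against 57% of all tested genes (37.2% and 19.7%). They were higher than C57 in 1 (Cd68) and lower in 3 (Adgre1, Mertk and Trem2), against 46.2% (20.1% and 26.2%). After LPS, C57 was higher than B6 in 5 (Mertk, Trem2, Cd68, Gpnmb and Cebpb) and lower in 1 (Axl), against 58.8% (49.1% and 9.69%). PWD was higher than B6 in 2 (Cd68 and Gpnmb) and lower in 4 (Mertk, Axl, Trem2 and Maf), against 68.6% (49.7% and 19.0%), and higher than C57 in 1 (Cd68) and lower in 5 (Mertk, Axl, Trem2, Maf and Cebpb), against 54.2% (24.4% and 29.8%). With median-of-ratios scaling, C57 after LPS was higher than B6 in 2 (Trem2 and Cd68) and lower in 3 (Axl, Adgre1 at -0.22, adjusted p = 0.0399, and Maf at -0.64, adjusted p = 0.000843), where 3642 of all tested genes were higher and 3933 lower. That scaling also called Axl lower in untreated C57 and PWD than in B6, Maf lower in untreated PWD than in B6, and Gpnmb higher in PWD than in C57 under both treatments. Comparisons that involve the same strain share their libraries.

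Genes that work with the 8 were read from fixed lists. Medians given here of LPS differences stand beside -0.43, -0.32 and -0.32 over all tested genes in B6, C57 and PWD, and those of untreated PWD minus B6 beside 0.14. Counts called stand beside these shares of all tested genes. With LPS they were 11.9% higher and 59.7% lower in B6, 10.4% and 52.2% in C57 and 11.1% and 52.4% in PWD. Untreated PWD was higher than B6 in 37.2% and lower in 19.7%, and untreated C57 in 31.9% and 6.92%. With median-of-ratios scaling the counts of all 13246 genes were 4129 and 4024, 3291 and 3495, and 3591 and 3460 with LPS. Untreated they were 4181 and 3998 for PWD and 2673 and 2592 for C57. Of 8 TAM receptors, ligands and sheddases (Mertk and Axl included), LPS raised 2 and lowered 4 in B6, 0 and 4 in C57 and 1 and 6 in PWD; with median-of-ratios scaling the counts were 4 and 2, 2 and 4, and 1 and 4. The list's median LPS difference was -0.11, -0.35 and -0.59. Adam10, a protease that sheds surface receptors, fell in B6, C57 and PWD (-1.04, -0.84 and -1.04 on the log2 scale; with median-of-ratios scaling -0.49, -0.48 and -0.66). Pros1, which encodes the ligand protein S, was at 3.64 TPM in untreated B6, 6.65 in C57 and 12.7 in PWD cells, and PWD minus B6 was 1.56. The ligand gene Gas6 stayed between 0.40 and 1.27 TPM and the third receptor gene Tyro3 between 0.28 and 3.18 TPM in the group means.

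Of 14 tested genes of the TREM family and DAP12 signalling (Trem2 included), LPS raised 2 and lowered 11 in B6, 2 and 9 in C57 and 4 and 8 in PWD (4 and 5, 4 and 5, and 5 and 7 with median-of-ratios scaling), with medians of -0.66, -0.44 and -0.51. Tyrobp, which encodes DAP12, did not follow Trem2 across strains: it averaged 606.3 TPM in untreated B6, 551.1 in C57 and 673.5 in PWD cells, and PWD minus B6 was 0.15 (not called). With LPS Tyrobp fell in B6, C57 and PWD as deposited (-0.66, -0.45 and -0.48). Under median-of-ratios scaling these values were -0.09, -0.08 and -0.10. Inpp5d, the phosphatase SHIP1, fell in B6, C57 and PWD (-2.01, -0.86 and -0.69), as did Lat2, a membrane adaptor (-1.87, -1.37 and -1.42). Trem1, the amplifying receptor of the family, fell in B6 (-0.84) and rose in PWD (0.45). In C57 its value was -0.09 (0.26 with median-of-ratios scaling).

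Of 20 genes of dying-cell uptake and bridging, LPS raised 3 and lowered 16 in B6, 3 and 16 in C57 and 5 and 15 in PWD (4 and 12, 4 and 14, and 5 and 11 with median-of-ratios scaling), with medians of -0.90, -0.72 and -0.60. Itgb3, the β3 integrin chain, fell in B6 (-0.41) and C57 (-0.78) and rose in PWD (2.14). In untreated cells 9 of the 20 were higher and 8 lower in PWD than in B6 (37.2% and 19.7% of all tested genes). Among them Cd93 was higher (1.53), and C1qc, a subunit of complement C1q, was lower (-4.62). Of 24 MiT-family factors and lysosome genes, 15 were higher and 1 lower in untreated PWD than in B6 cells (15 and 5 with median-of-ratios scaling, median 0.41). In untreated C57 cells 14 were higher and 1 lower than in B6 (12 and 4 with median-of-ratios scaling). The C57 median was 0.36, beside 0.17 over all tested genes. Ctsd, the protease cathepsin D, averaged 1192 TPM in untreated B6, 2764 in C57 and 5333 in PWD cells, the same order as Gpnmb and Cd68. Ctsk, the collagen-degrading cathepsin K, was highest in untreated C57 cells (2.34 above B6). With LPS 3 of the 24 rose and 18 fell in B6, 2 and 17 in C57 and 1 and 17 in PWD, against 9 and 5, 5 and 8, and 8 and 7 with median-of-ratios scaling; the medians as deposited were -0.45, -0.42 and -0.33. Tfeb, which drives lysosome genes, fell in B6, C57 and PWD (-1.5, -1.36 and -1.20), while its relative Mitf rose (0.42, 0.57 and 0.31).

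Around the transcription factors, of 6 tested MAF relatives and partners, LPS raised 0 and lowered 3 in B6, 2 and 2 in C57 and 1 and 3 in PWD (4 and 2, 4 and 2, and 3 and 2 with median-of-ratios scaling), with medians of -0.31, 0.05 and -0.22. Bach1, a repressor that pairs with small MAF proteins, fell in each strain (-1.54, -0.67 and -0.96). Of 9 tested C/EBP relatives and partners, LPS raised 0 and lowered 7 in B6, 1 and 7 in C57 and 1 and 7 in PWD (2 and 3, 2 and 2, and 2 and 5 with median-of-ratios scaling), with medians of -0.49, -0.42 and -0.53. Cebpa, the relative that drives early myeloid differentiation, fell in B6, C57 and PWD (-2.79, -1.38 and -1.98; with median-of-ratios scaling -2.31, -1.03 and -1.60). In untreated cells 6 of the 9 were higher in PWD than in B6 and 0 lower (5 and 2 with median-of-ratios scaling), with Cebpe, a factor of granulocyte maturation, 2.75 higher. Of 11 neutrophil and precursor markers, 7 were higher and 2 lower in untreated PWD than in B6, against 37.2% and 19.7% of all tested genes. In untreated C57 cells 10 were higher and 0 lower than in B6 (31.9% and 6.92% of all tested genes). Untreated PWD against C57 gave 3 higher and 4 lower (20.1% and 26.2%). The untreated sum of these markers was 1540 to 1780 TPM in B6, 2310 to 3930 TPM in C57 and 1740 to 2910 TPM in PWD. The part of cells with such markers in the Cebpe difference was not tested.

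Of 18 macrophage-lineage transcription factors, LPS raised 3 and lowered 12 in B6, 3 and 10 in C57 and 2 and 12 in PWD (7 and 9, 7 and 6, and 4 and 9 with median-of-ratios scaling), with medians of -0.63, -0.35 and -0.53. Klf4 fell in each strain (-1.79, -1.68 and -2.30), and Irf8, a factor of dendritic cells and monocytes, rose in B6 (1.04). In untreated cells 11 of the 18 were higher in PWD than in B6 and 3 lower (11 and 4 with median-of-ratios scaling; median 0.46). Nr1h3 (LXRα) was 2.78 and Pparg 2.30 higher, both nuclear receptors of lipid handling, and Irf8 was lower (-1.76). In untreated C57 cells 10 of the 18 were higher than in B6 and 3 lower, with a median of 0.33 beside 0.17 over all tested genes. Untreated PWD against C57 gave 7 higher and 6 lower (20.1% and 26.2% of all tested genes). Of 19 tested further macrophage and monocyte markers, LPS raised 6 and lowered 10 in B6, 5 and 9 in C57 and 4 and 10 in PWD (10 and 8, 10 and 6, and 9 and 8 with median-of-ratios scaling), with medians of -0.38, -0.18 and -0.45. Cd14, the LPS co-receptor, and Marco, a scavenger receptor, rose in each strain (Marco by 2.95, 1.72 and 1.48). Csf1r, the M-CSF receptor, fell (-1.33, -0.64 and -0.47 in B6, C57 and PWD, the last -0.09 and not called with median-of-ratios scaling), as did Ccr2, the monocyte chemokine receptor (-2.21, -1.51 and -2.39). Cd163 (at most 0.46 TPM) and Vsig4 (at most 0.11 TPM), markers of some tissue macrophages, were close to 0 in all group means. Of 6 relatives of Adgre1 among adhesion receptors, LPS raised 2 and lowered 4 in B6, 1 and 3 in C57 and 1 and 4 in PWD (2 and 3, 2 and 3, and 2 and 4 with median-of-ratios scaling), with medians of -0.53, -0.44 and -0.86, and Adgre5 (CD97) fell in B6, C57 and PWD (-2.24, -1.32 and -1.01).

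The profiles most like those of each gene over the 24 libraries were ranked by the Pearson r of log2(TPM + 1). The ranking took the tested genes that RefSeq lists as protein-coding and left out unnamed gene models. For Trem2 they were Pabpc4 (0.991), Dna2 (0.989) and Cyp4f16 (0.983), and for Cd68 Ttyh2 (0.976), Pcyox1 (0.972) and Tnfrsf26 (0.968). For Maf, Apol9a (0.961) and Hamp (0.96) were among them, and for Gpnmb they were Ckb (0.956), Ctsl (0.947) and Atp2a3 (0.94). For Axl they were Dpy19l1 (0.95), Ccdc6 (0.946) and Il13ra1 (0.944), and for Mertk Ly9 (0.947), Lxn (0.945) and Mocos (0.944). Adgre1 and Cebpb had the loosest matches, Cnksr3 (0.889), Lrrc49 (0.887) and Foxp1 (0.883) for Adgre1 and Ube2j2 (0.876), Smarca5 (0.874) and Zfx (0.871) for Cebpb. These likenesses share strains, treatments, mice and the TPM scale.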

How the data were processed

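The deposited table gives TPM per gene for 24 libraries, each summing to 1000000; per the submitters' processing notes the tools were STAR and edgeR and the build mm10. The annotation, the counting and the TPM computation were not given in the sources used here, and TPM keeps no depth. Per the labels' protocols, libraries were made with a stranded kit from total RNA. Lines that share a symbol (217 of 55401) were summed to 55291 symbols. The 13246 genes that reached 1 TPM in 4 or more libraries were tested on log2(TPM + 1) with limma 3.58.1 (R 4.3.3), using 6 group means (residual degrees of freedom: 18) and empirical Bayes, trend and robust options on. Tests were two-sided, adjusted by Benjamini-Hochberg over all tested genes, in 12 comparisons. Tables and plots used Python 3.11.15, pandas 2.3.3 and matplotlib 3.10.9. Positions come from GENCODE M21 and promoters from RefSeq.

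Named genes were all 8 genes, up to 3 called genes per direction from each list (higher group mean at least 10 TPM), and the 3 closest profiles among named protein-coding genes. Gas6, Tyro3, Cd163, Vsig4, Acp5, Calcr and Oscar fall outside that rule and were named after their values were seen. Tyrobp in untreated PWD minus B6 was not called and also falls outside that rule. The 8 genes and the lists were chosen with earlier results of these data known. Same-numbered untreated and LPS libraries of a strain were taken as 1 mouse from the study's description. The correlation of their deviations from the group means was 0.0513 to 0.176 over 12 pairs, above 0.1 in 10, and the partner was the best match in 10. Alternatives were other pseudocounts, filters and scalings, plain empirical Bayes, the compared groups alone, a replicate block, the mice numbered 1 and 2 or 3 and 4, and each library left out. The procedure was tested on simulated data. Results for some genes that these rules would name are not reported here.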

Additional observations from a re-analysis of the deposited data

Results flagged for a closer look

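Dixon's criterion at 95%, which chance meets in about 5% of groups, picked out 3 single libraries among the 48 sets of 4 values. Trem2 was lowest in LPS-treated B6 library 4 (35.7 TPM, against 44.1 to 45.3 in the other libraries) and in LPS-treated PWD library 4 (17.1 TPM, against 23.9 to 24.5). Cebpb was highest in LPS-treated PWD library 1 (160.8 TPM, against 108.1 to 110.5).

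The LPS response differed between strains, by limma's test of the difference itself, in 8 cases on the log2 scale. PWD minus B6 was 0.616 for Adgre1, -0.894 for Axl, -1.56 for Maf, -0.919 for Mertk and 0.511 for Trem2. PWD minus C57 was 0.594 for Adgre1 and -1.47 for Maf, and C57 minus B6 was 0.449 for Trem2. Of these, both Adgre1 differences and both Trem2 differences were lost under at least 1 alternative, in part as given beside each gene. Without a filter the adjusted p was 0.0594 for Adgre1 in PWD minus B6, 0.109 for Adgre1 in PWD minus C57 and 0.0935 for Trem2 in C57 minus B6. With plain empirical Bayes it was 0.0643 for Adgre1 in PWD minus C57 and 0.0526 for Trem2 in C57 minus B6. A pseudocount of 0.1 TPM gave 0.0571 for Adgre1 in PWD minus C57.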

How the results depend on the processing

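TPM without depth, 4 libraries a group and 1 assembly limit all values. Over the 96 values (8 genes in 12 comparisons), direction and call were as reported for 95 with a pseudocount of 0.1 TPM, 91 without a filter, 95 with a filter of 5 TPM, 89 without structural RNA, 94 with plain empirical Bayes, 92 with the compared groups alone, 81 with quantile normalization and 62 with median-of-ratios scaling.

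Median-of-ratios scaling turned 12 values. LPS minus untreated became 0.1151 for Cd68, 0.2578 for Gpnmb and 0.1175 for Cebpb in B6, 0.1672 for Mertk, 0.1784 for Cd68 and 0.1532 for Cebpb in C57, and 0.2152 for Cd68 in PWD. C57 minus B6 became -0.05058 for Adgre1 and -0.03166 for Trem2 untreated, and -0.2238 for Adgre1 with LPS. For Adgre1, PWD minus B6 with LPS became -0.102 and the C57 minus B6 response -0.1732. Quantile normalization turned Mertk with LPS in C57 (0.03125) and Cebpb in PWD minus B6 with LPS (0.03137).

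With the mice numbered 1 and 2 alone, 14 values turned. For Adgre1 these were LPS in B6 (-0.02848) and C57 (-0.05058), C57 minus B6 untreated (-0.05589), with LPS (-0.07798) and in response (-0.02209). For Cebpb they were PWD minus B6 (-0.4067) and PWD minus C57 (-1.073) untreated, PWD minus B6 with LPS (0.07884), and the responses C57 minus B6 (-0.09245), PWD minus B6 (0.4855) and PWD minus C57 (0.578). The others were LPS in C57 for Axl (-0.09899), the C57 minus B6 response for Maf (0.04258) and the PWD minus C57 response for Gpnmb (0.2163). With the mice numbered 3 and 4 alone, 9 turned: LPS in C57 for Mertk (0.0206) and Cebpb (0.5442), untreated Maf in C57 minus B6 (0.09614), PWD minus B6 (0.1924) and PWD minus C57 (0.09627), untreated Adgre1 in PWD minus B6 (0.1224), untreated Axl in PWD minus C57 (0.1219), and the PWD minus C57 response for Trem2 (-0.3328) and Cd68 (-0.1579). The cause was not tested.

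Of 960 values with 1 library left out, 867 kept direction and call and 24 turned. The ranges of the results that turned were -0.04246 to 0.2091 (Adgre1, LPS in B6), -0.07863 to 0.1729 (Adgre1, C57 minus B6 response), -0.02633 to 0.1136 (Adgre1, PWD minus C57 with LPS), -0.02151 to 0.07289 (Axl, LPS in C57), -0.04838 to 0.08803 (Cd68, PWD minus C57 response), -0.1858 to 0.01652 (Cebpb, PWD minus B6 with LPS), -0.1605 to 0.3105 (Cebpb, PWD minus C57 untreated), -0.3192 to 0.02588 (Maf, C57 minus B6 untreated), -0.2757 to 0.06942 (Maf, C57 minus B6 response) and -0.003453 to 0.1798 (Trem2, PWD minus C57 response).

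The number of the 8 genes called moved by more than 1.5 times in 6 counts. For the C57 minus B6 response (1 as reported) it was 0 without a filter, with plain empirical Bayes, with the mouse as a replicate block and in the mice numbered 1 and 2, 2 with each scaling (Mertk and Axl with median of ratios, Mertk and Cd68 with quantiles, Trem2 and Cd68 without structural RNA), and 0 to 2 with 1 library left out. For the PWD minus C57 response (2) it was 1 with a pseudocount of 0.1 TPM, without a filter and with plain empirical Bayes, 4 with the block, with median-of-ratios scaling and without structural RNA, 5 in the mice numbered 3 and 4, and 1 to 3 with 1 library left out. Genes called alike by LPS in all strains (2) were 1 without a filter and 1 to 3 with 1 library left out, and 3 with the block, quantile normalization, median-of-ratios scaling and in the mice numbered 1 and 2, within 1.5 times. In the mice numbered 1 and 2 or 3 and 4 the count was 6 or 5 for LPS in C57 (3) and 5 or 5 for untreated C57 minus B6 (3), and in the mice numbered 1 and 2 it was 7 for untreated PWD minus C57 (4).

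The replicate block changed 7 single calls, each given beside its gene except the PWD minus B6 response of Gpnmb (-0.4068, adjusted p = 0.0335, limma), and no other call.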
